A study of Mus musculus with 12 samples.

Results

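The 10 cytotoxic lymphocyte effector genes described here are Tbx21, Eomes, Ifng, Prf1, Gzma, Gzmb, Nkg7, Ccl5, Il2rb and Klrd1, a list set by gene name with earlier results of these data known. They are 10 of the 54532 gene IDs in a table of RNA sequencing counts, and all 10 passed the filter on low counts that left 15003 genes for testing. Lineage-negative, cKit-positive haematopoietic stem and progenitor cells (HSPCs) had been sorted from fresh mouse bone marrow and never cultured, and their RNA was counted in 12 libraries. RH MET is Dnmt3a R878H/+ with metformin, RH VEH is Dnmt3a R878H/+ with vehicle, WT MET is Dnmt3a+/+ with metformin and WT VEH is Dnmt3a+/+ with vehicle, with 3 libraries in each group. All 4 groups are C57BL/6 and carry Mx1-cre, the recombinase driven by an interferon-inducible promoter, and the RH groups carry the heterozygous floxed R878H allele of the DNA methyltransferase gene Dnmt3a. Treatment lasted 1 month within an in vivo competition experiment. Each treatment group had 2 animals, fewer than its libraries, and which animal gave which library is not stated. The p-values therefore measure the spread between libraries, part of which may be technical. No source used here states the metformin dose or the mice's age.

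Natural killer (NK) cells, CD8+ T cells and some other T cells kill target cells by releasing granules. Perforin (Prf1) opens the target membrane, granzymes (Gzma, Gzmb) are proteases delivered into the target, and Nkg7 is a granule membrane protein that promotes degranulation. The T-box factors T-bet (Tbx21) and Eomes drive this programme together with interferon gamma (Ifng), and Il2rb is the receptor chain shared by IL-2 and IL-15, the cytokines that sustain these cells. Ccl5 is a chemokine of activated T and NK cells, and Klrd1 (CD94) pairs with NKG2 receptors that read MHC class I. Gating on lineage-negative cells is meant to leave mature lymphocytes out. In bulk libraries, fewer cells of a type and less RNA per cell cannot be told apart.

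The members lie on 8 chromosomes of the mm10 build. Coordinates are those of the deposited gene annotation, with no exon-level positions used. The transcription factor genes are Tbx21 (ENSMUSG00000001444, chr11:97098071-97115331, minus strand) and Eomes (ENSMUSG00000032446, chr9:118478212-118486132, plus strand). The cytokine genes are Ifng (ENSMUSG00000055170, chr10:118441046-118445892, plus strand) and Ccl5 (ENSMUSG00000035042, chr11:83525778-83530518, minus strand). The granule genes are Prf1 (ENSMUSG00000037202, chr10:61297833-61304680, plus strand), Gzma (ENSMUSG00000023132, chr13:113093825-113100981, minus strand), Gzmb (ENSMUSG00000015437, chr14:56258838-56262260, minus strand) and Nkg7 (ENSMUSG00000004612, chr7:43437073-43438249, plus strand). The receptor genes are Il2rb (ENSMUSG00000068227, chr15:78479256-78495271, minus strand) and Klrd1 (ENSMUSG00000030165, chr6:129591782-129598775, plus strand). All 10 are annotated as protein coding.

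Promoter windows of RefSeq (GRCm38.p6, the assembly behind mm10) matched 7 of the 10 members by symbol. The 250 bases before the RefSeq start are shown for 4 members, picked by RH MET against WT MET. In that comparison Ifng and Gzma are among the genes that stood lower in RH MET libraries. Gzmb and Nkg7 are the members whose libraries overlapped between those 2 groups. Capitals mark the T-box core GTGTGA (or its reverse complement TCACAC), the T-box sequence AGGTGTG, the RUNX core TGTGGT (or ACCACA) and the TATA sequence TATAAA. The strand printed is the gene's own. Windows are chr10:118440796-118441045 for Ifng, chr13:113100982-113101231 for Gzma, chr14:56262335-56262584 for Gzmb and chr7:43436888-43437137 for Nkg7.
Ifng: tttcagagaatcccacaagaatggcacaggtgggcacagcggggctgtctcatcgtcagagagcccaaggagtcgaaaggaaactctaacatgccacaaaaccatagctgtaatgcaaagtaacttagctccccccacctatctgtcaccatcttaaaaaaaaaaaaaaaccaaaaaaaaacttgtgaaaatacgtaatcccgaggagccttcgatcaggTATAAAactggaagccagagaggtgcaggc
Gzma: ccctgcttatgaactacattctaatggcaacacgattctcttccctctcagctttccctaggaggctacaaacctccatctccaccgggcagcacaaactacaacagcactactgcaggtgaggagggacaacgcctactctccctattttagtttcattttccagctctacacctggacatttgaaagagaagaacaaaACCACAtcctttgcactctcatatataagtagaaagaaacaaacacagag
Gzmb: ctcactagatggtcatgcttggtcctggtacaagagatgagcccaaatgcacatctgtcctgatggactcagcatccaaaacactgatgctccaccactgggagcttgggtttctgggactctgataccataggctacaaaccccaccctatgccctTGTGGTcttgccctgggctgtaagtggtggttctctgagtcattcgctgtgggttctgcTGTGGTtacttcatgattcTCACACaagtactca
Nkg7: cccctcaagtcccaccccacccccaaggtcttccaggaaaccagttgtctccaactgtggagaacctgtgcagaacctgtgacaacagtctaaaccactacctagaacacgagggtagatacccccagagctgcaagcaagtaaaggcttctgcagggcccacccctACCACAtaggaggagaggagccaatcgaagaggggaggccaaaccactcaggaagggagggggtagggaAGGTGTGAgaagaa
The search ran on both strands of windows that also took in 50 bases from the RefSeq start on. The T-box core was found in Nkg7 (position -12 from the start) and Gzmb (position -15), 2 of 7 member windows, against 14.5% of 32851 windows of the same length. In Nkg7 it overlaps an AGGTGTG match, which 5.84% of all windows hold. The RUNX core lay in Prf1, Gzma, Gzmb and Nkg7, 4 of 7, against 16.8% of all windows. TATAAA was found at position -30 of Ifng and in none of the other 6 member windows searched, against 13.6% of all windows. STAT (TTCNNNGAA), ETS (GGAAGT) and AP-1 (TGANTCA) sequences were also searched and are not marked above. They lay in 3, 2 and 1 of 7 member windows, against 8.3%, 23.8% and 7.81% of all windows. These matches are descriptions of letters, not of bound sites. The RefSeq start of Ifng and of Gzma is the first base of the deposited gene, whereas that of Gzmb lies 74 bases upstream of it and that of Nkg7 65 bases downstream.

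Library totals ran from 13359583 to 21938003 assigned counts, and no pair of libraries held identical counts. A pair of features of the libraries touch every result that follows. RH VEH 2 and WT MET 2 took 40.8% and 33.3% of their counts from the mitochondrial genome, against 1.57% to 4.32% in the other 10, which left 8.37 and 9.86 reads behind a value of 1 CPM (counts scaled to a common library size) against 16.96 to 24.8 elsewhere. A second, smaller deposited table repeats 6 of the 12 libraries, here called round 1 (RH MET 1 and 2, RH VEH 1, WT MET 1, WT VEH 1 and 2), and the other 6 are called round 2. The labels do not say what the split stands for. Library numbers are those of the table's columns and not the numbers in the sample titles: 5 columns (RH MET 1 and 2, WT MET 1, WT VEH 1 and 2) match a title by name. RH VEH 1 is the only RH VEH library repeated in the smaller table. The only RH VEH column used there carries the number of the title RH VEH-2, so RH VEH 1 is probably that sample. RH VEH 2 here belongs to round 2 instead. The other columns are known by group alone. Levels are CPM with TMM-scaled library sizes, and fold changes are log2 values from edgeR's quasi-likelihood test with a term for the round, fitted to all 12 libraries, with Benjamini-Hochberg adjustment over the 15003 genes.

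Per kilobase of gene length, Nkg7 was the most abundant member, with a mean of 56.7 CPM per kb over the 12 libraries and a range of 37.7 to 77.5. Ccl5 followed at 15.2 (3.56 to 29.1), then Gzmb at 6.55, Il2rb at 5.32, Klrd1 at 3.74, Gzma at 2.42, Ifng at 1.78, Tbx21 at 0.912, Eomes at 0.814 and Prf1 at 0.652 CPM per kb. Nkg7 was the only gene whose range over the 12 libraries did not overlap that of the next gene in the order, and each other neighbouring pair overlapped. Within libraries, Gzmb stood above Il2rb in 6 of 12, so these neighbours had no fixed order, whereas Ifng stood above Tbx21 in 12 of 12. The highest library exceeded the lowest by 2.06 times for Nkg7, 4.71 times for Gzmb and 12.9 times for Prf1 on the CPM scale.

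**Figure D1:**
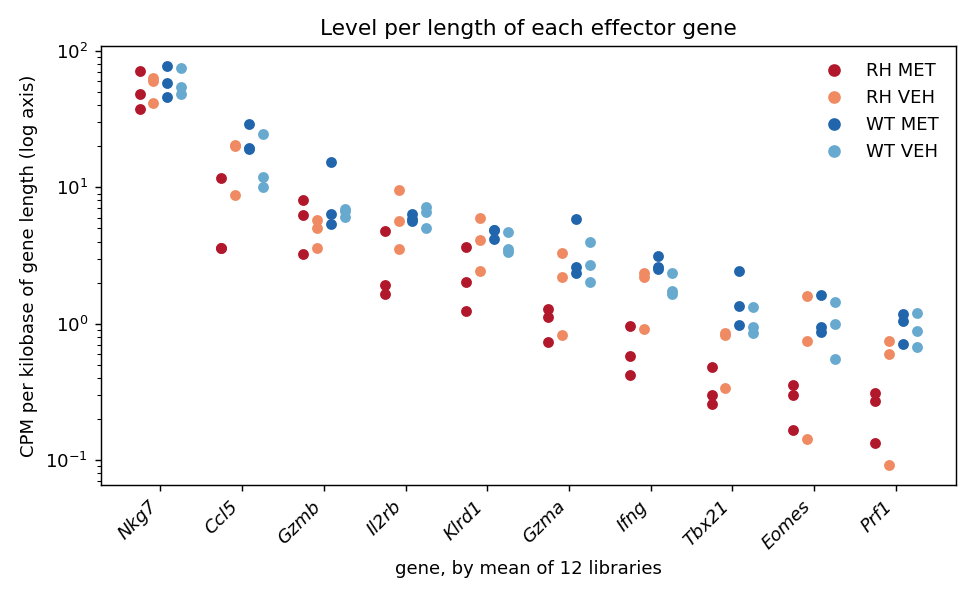
Level of each effector gene in CPM per kilobase of gene length (log axis), with 1 point per library coloured by group and genes ordered by their mean over 12 libraries. Nkg7 lies above all other members (37.7 to 77.5), and Prf1, Eomes and Tbx21 lie at the bottom.

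In metformin-treated cells, mutant libraries held less of most cytotoxic effector RNA than wild-type ones. Every RH MET library lay below every WT MET library for 8 of the 10 members (Tbx21, Eomes, Ifng, Prf1, Gzma, Ccl5, Il2rb and Klrd1), where 8.94% of all tested genes had that pattern. The median log2 fold change of the 10 members was -1.73, against -0.02 over all tested genes. No member passed the adjusted threshold of 0.05 by edgeR, and the background of genes called lower was 0% (1 gene of 15003 was called higher, 0.00667%). At an unadjusted p under 0.05, edgeR had 9 of 10 members lower, all but Nkg7, against 3.59% of tested genes. With a library left out, the count was 6 without RH MET 2 or WT MET 1 and 7 without RH MET 1. It was 8 without RH MET 3, WT MET 2 or WT MET 3, and 9 without any other library. Across these 12 fits 1.69% to 5.6% of tested genes were lower. DESeq2 called 2 members (Tbx21, adjusted p 0.0384, and Ifng, adjusted p 0.0345), and limma-voom called 0. By DESeq2, 0.127% of tested genes were called lower.

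**Figure D2:**
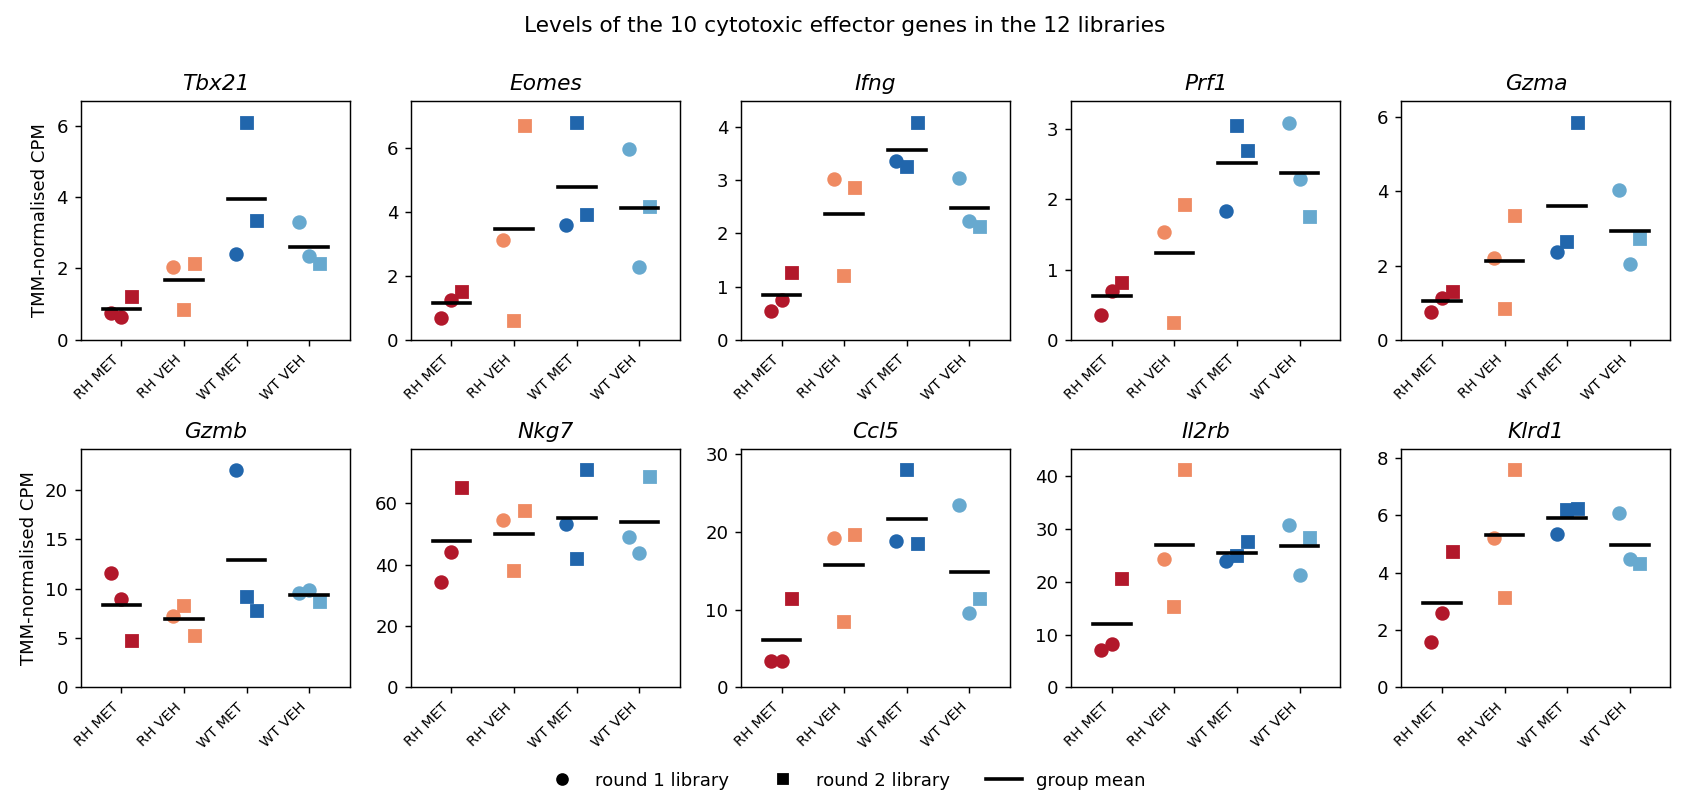
TMM-normalised CPM of each effector gene in the 12 libraries, with 1 panel per gene, circles for round 1 and squares for round 2 libraries, and a bar for each group mean. The 3 RH MET libraries lie below the 3 WT MET libraries for 8 genes, and the groups overlap for Gzmb and Nkg7.

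Among the transcription factors, Tbx21 measured 0.744, 0.647 and 1.21 CPM in RH MET libraries 1, 2 and 3, against 2.42, 6.09 and 3.33 CPM in WT MET libraries 1, 2 and 3. The highest RH MET library lay below the lowest WT MET library. Group means were 0.866 ± 0.299 CPM in RH MET and 3.94 ± 1.91 CPM in WT MET libraries (SD, n = 3 each). The log2 fold change was -2.08 ± 0.485 (SE; adjusted p 0.738 by edgeR). Eomes, the T-box partner of T-bet, measured 0.694, 1.24 and 1.49 CPM in RH MET, against 3.60, 6.80 and 3.92 CPM in WT MET libraries, again without overlap, with a log2 fold change of -1.93 ± 0.662 (adjusted p 0.738 by edgeR).

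Ifng, the signature cytokine of these cells, measured 0.545, 0.755 and 1.25 CPM in RH MET libraries, from 11, 14 and 31 reads. WT MET libraries held 3.36, 3.25 and 4.08 CPM, from 57, 32 and 76 reads. The 2 sets were separated by a gap wider than the spread inside either, and means were 0.849 ± 0.361 CPM in RH MET and 3.56 ± 0.452 CPM in WT MET (SD, n = 3 each). The log2 fold change was -2.04 ± 0.437, rank 8 of 15003 genes by p (adjusted p 0.738 by edgeR). The chemokine Ccl5 measured 3.42, 3.45 and 11.3 CPM in RH MET, against 18.8, 27.9 and 18.4 CPM in WT MET libraries. RH MET 3 held more than 3 times the Ccl5 of the other RH MET libraries and still lay below every WT MET library. Its log2 fold change was -1.79 ± 0.537 (adjusted p 0.738 by edgeR).

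The granule genes differed among themselves. Prf1 measured 0.347, 0.701 and 0.805 CPM in RH MET libraries, from 7, 13 and 20 reads, against 1.83, 3.04 and 2.68 CPM in WT MET libraries, from 31, 30 and 50 reads. Gzma measured 0.744, 1.13 and 1.29 CPM in RH MET, against 2.36, 2.64 and 5.85 CPM in WT MET libraries. Both genes were separated by group, with log2 fold changes of -1.99 ± 0.596 for Prf1 and -1.68 ± 0.534 for Gzma. Gzmb measured 11.6, 8.95 and 4.67 CPM in RH MET, against 22.0, 9.13 and 7.73 CPM in WT MET libraries. Its groups overlapped, WT MET 1 stood apart from every other library, and the log2 fold change was -0.82 ± 0.309. Nkg7 measured 34.5, 44.0 and 65.2 CPM in RH MET, against 53.3, 41.8 and 70.8 CPM in WT MET libraries, which overlap over most of their range. Its log2 fold change was -0.14 ± 0.249 (adjusted p 0.876 by edgeR, against 0.738 for the other granule genes).

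Of the receptors, Il2rb measured 7.14, 8.25 and 20.6 CPM in RH MET, against 24.1, 25.0 and 27.5 CPM in WT MET libraries, a log2 fold change of -1.02 ± 0.367. Klrd1 measured 1.59, 2.59 and 4.71 CPM in RH MET, against 5.37, 6.19 and 6.23 CPM in WT MET libraries, a log2 fold change of -0.94 ± 0.392. For both receptors the WT MET libraries lay close together and RH MET 3 was the library nearest to them (adjusted p 0.738 each by edgeR). RH MET 3 was the highest RH MET library for 9 of the 10 members, Gzmb being the exception. It is the round 2 library of its group. Within round 1, the median log2 fold change of the members for RH MET against WT MET was -1.71, and within round 2 it was -1.27 with 9 of 10 members below 0. At an unadjusted p under 0.05, edgeR had 9 members lower within round 1 (4.23% of tested genes) and 0 within round 2 (0.168%), where each round leaves 1 to 2 libraries per group.

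**Figure D3:**
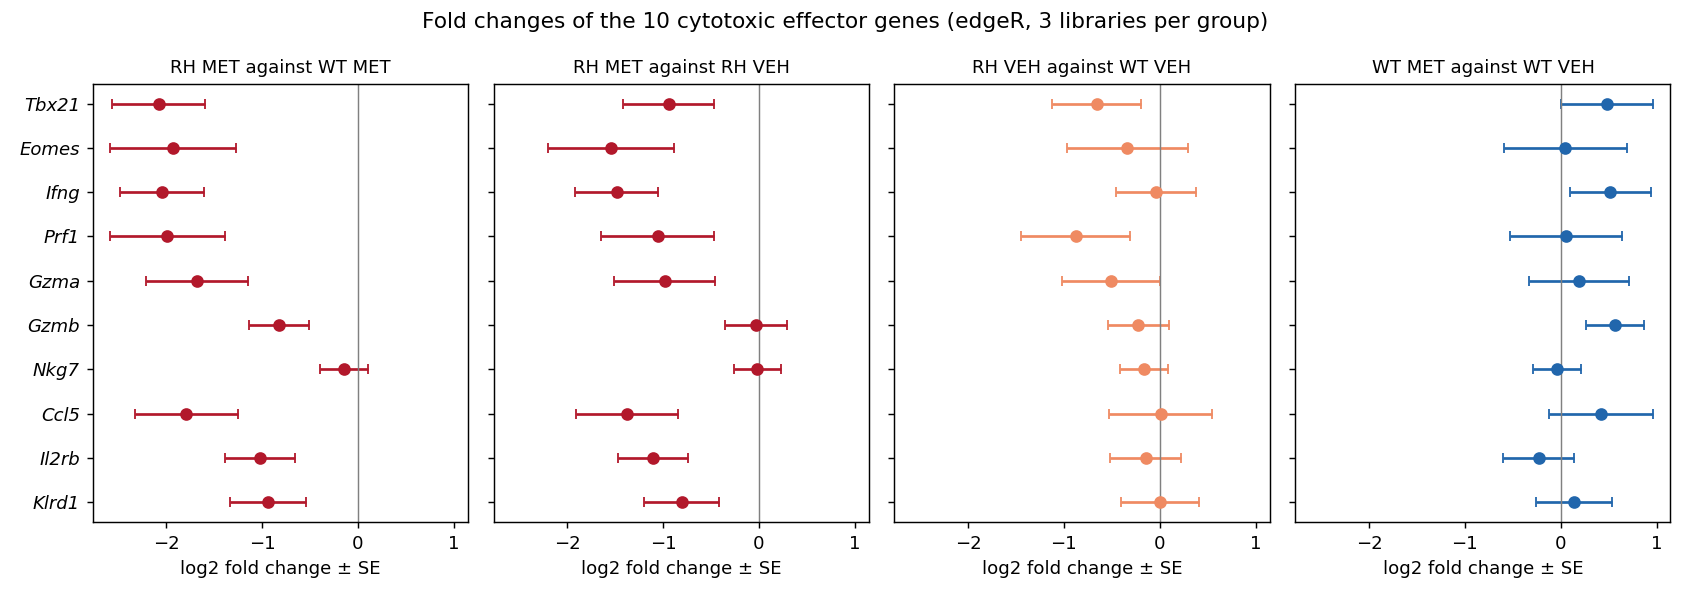
Log2 fold change of each effector gene in 4 comparisons, with bars for the standard error derived from edgeR's F statistic. In RH MET against WT MET, Tbx21, Ifng, Prf1 and Eomes lie near -2 and Nkg7 at -0.14, and in RH VEH against WT VEH the median is -0.19.

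In mutant cells, metformin-treated libraries had lower values than vehicle libraries for most members, but the libraries of the groups overlapped for all 10. Genes with every RH MET library below every RH VEH library made up 2.81% of those tested, and genes with every one above made up 4.11%. The median log2 fold change of the members was -1.02, against -0.01 over all genes. Called genes were 0% of those tested in either direction, and 0 members passed the adjusted threshold by edgeR, DESeq2 or limma-voom. At an unadjusted p under 0.05, edgeR had 4 members lower (Eomes, Ifng, Ccl5 and Il2rb), against 1.52% of tested genes. That count was 8 without RH VEH 2, 0 without RH VEH 1, 1 without RH VEH 3 and 2 without RH MET 1 or RH MET 2, while 0.648% to 7.69% of tested genes were lower across the 12 fits that left out a library (1.05% without RH VEH 2).

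For 8 members the overlap with RH MET came from RH VEH 2 alone. Ifng measured 0.545, 0.755 and 1.25 CPM in RH MET libraries, against 3.03, 1.19 and 2.85 CPM in RH VEH libraries 1, 2 and 3. Prf1 measured 0.347, 0.701 and 0.805 CPM in RH MET, against 1.54, 0.239 and 1.92 CPM in RH VEH libraries, where RH VEH 2 rested on 2 reads. Without RH VEH 2, 8 members had every RH MET library below both remaining RH VEH libraries (all but Gzmb and Nkg7), a pattern that 5.62% of tested genes then showed. Without RH VEH 2 and WT MET 2 the median log2 fold change of the members was -1.35, with 8 members lower at an unadjusted p under 0.05 (1.7% of tested genes) and 0 past the adjusted threshold by edgeR.

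Ifng had the smallest p of the members here, a log2 fold change of -1.48 ± 0.433 (adjusted p 0.932 by edgeR) that was -1.76 ± 0.363 without RH VEH 2 and WT MET 2. Eomes measured 0.694, 1.24 and 1.49 CPM in RH MET, against 3.13, 0.597 and 6.69 CPM in RH VEH libraries, a log2 fold change of -1.54 ± 0.654. Ccl5 measured 3.42, 3.45 and 11.3 CPM in RH MET, against 19.2, 8.36 and 19.5 CPM in RH VEH libraries, a log2 fold change of -1.38 ± 0.531. For these genes RH VEH 2 lay within or near the RH MET range and RH VEH 1 and 3 lay above it. Il2rb measured 7.14, 8.25 and 20.6 CPM in RH MET, against 24.4, 15.2 and 41.2 CPM in RH VEH libraries, a log2 fold change of -1.10 ± 0.368. Tbx21 had 0.744, 0.647 and 1.21 CPM in RH MET, against 2.05, 0.836 and 2.12 CPM in RH VEH libraries, a log2 fold change of -0.94 ± 0.475. Both genes overlapped between the groups only through RH VEH 2.

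For the remaining members, log2 fold changes of RH MET against RH VEH were -1.05 ± 0.588 for Prf1, -0.98 ± 0.525 for Gzma and -0.80 ± 0.390 for Klrd1. Gzmb measured 11.6, 8.95 and 4.67 CPM in RH MET, against 7.28, 8.24 and 5.16 CPM in RH VEH libraries, so that both groups spanned nearly the same levels, and its log2 fold change was -0.03 ± 0.323. Nkg7 measured 34.5, 44.0 and 65.2 CPM in RH MET, against 54.7, 38.1 and 57.6 CPM in RH VEH libraries, a log2 fold change of -0.01 ± 0.248. Gzmb and Nkg7 changed sign between ways of processing in this comparison. The rounds differed: the median of the 10 members was -1.55 within round 1, with 7 members lower at an unadjusted p under 0.05 (4.59% of tested genes), and -0.47 within round 2, with 0 (0.0934%).

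Under vehicle, no effector gene was shown to differ between mutant and wild-type libraries, which does not show that their levels were equal. The median log2 fold change of RH VEH against WT VEH was -0.19 over the members, with 8 of 10 below 0. It was 0.06 without RH VEH 2 and WT MET 2, with 4 below 0, so its sign rested on those libraries. No member passed the adjusted threshold by edgeR, DESeq2 or limma-voom. By edgeR, none of 10 was lower or higher at an unadjusted p under 0.05 (0.913% of tested genes were lower and 1.11% higher), and called genes were 0% of those tested. DESeq2 called 2 genes of 15003 higher and 1 lower. Tbx21 measured 2.05, 0.836 and 2.12 CPM in RH VEH, against 3.31, 2.34 and 2.13 CPM in WT VEH libraries. Gzmb measured 7.28, 8.24 and 5.16 CPM in RH VEH, against 9.55, 9.90 and 8.66 CPM in WT VEH libraries. These were the 2 members with every RH VEH library below every WT VEH library, against 3.23% of tested genes. For Tbx21 the nearest libraries of the groups, RH VEH 3 and WT VEH 3, held 43 and 44 reads. Prf1 had the smallest p of the members (log2 fold change -0.88 ± 0.571, adjusted p 0.977 by edgeR).

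In wild-type cells, no effector gene was shown to differ between metformin-treated and vehicle libraries, which does not show that their levels were equal. The median log2 fold change of WT MET against WT VEH was 0.16, with 8 members above 0 and 2 below. It was -0.06 within round 1, with 5 members below 0, and 0.56 within round 2, with 3 below 0. No member passed the adjusted threshold by edgeR, DESeq2 or limma-voom. By edgeR, none was higher or lower at an unadjusted p under 0.05 (2.1% of tested genes were higher and 1.93% lower), and called genes were 0% of those tested. By limma-voom, 1 member was higher at an unadjusted p under 0.05. Of 15003 tested genes, limma-voom had 638 at that level in either direction, 294 of them lower. DESeq2 called 1 gene of 15003 higher. Ifng measured 3.36, 3.25 and 4.08 CPM in WT MET, against 3.03, 2.24 and 2.13 CPM in WT VEH libraries. It was the 1 member with every WT MET library above every WT VEH library, against 4.98% of tested genes. Gzmb had the smallest p (log2 fold change 0.57 ± 0.303, adjusted p 0.876 by edgeR), and WT MET 1 stood apart at 22.0 CPM beside 9.13 and 7.73 CPM in WT MET 2 and 3.

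The difference between the metformin effects in mutant and wild-type cells was tested as an interaction in the same fit, which shares its libraries with the comparisons above. It was negative for 9 of the 10 members, with a median of -1.14 on the log2 scale, and 0 members passed the adjusted threshold (0% of genes were called). Ifng gave -2.001 ± 0.611, rank 30 by p, and Ccl5 gave -1.80 ± 0.758 (adjusted p 0.648 each by edgeR). These were the 2 members lower at an unadjusted p under 0.05, against 3.77% of tested genes. That count was 8 without RH VEH 2, 5 without RH MET 3, 3 without WT VEH 1, 2 without WT MET 1 or WT MET 3, 0 without RH VEH 1 and 1 without any other library, while 0.968% to 8.81% of tested genes were lower across these 12 fits (2.59% without RH VEH 2). Eomes gave -1.59 ± 0.934, Tbx21 -1.42 ± 0.685, Gzma -1.17 ± 0.761 and Prf1 -1.11 ± 0.841. Klrd1 gave -0.94 ± 0.566, Il2rb -0.87 ± 0.526, Gzmb -0.60 ± 0.450 and Nkg7 0.02 ± 0.356. No member's response to metformin was shown to differ between the genotypes by this test, which does not show that the responses were equal.

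Over both treatments, Tbx21 was the only member whose libraries did not overlap between the genotypes. All 6 RH libraries (0.647 to 2.12 CPM) lay below all 6 WT libraries (2.13 to 6.09 CPM), a pattern shared by 0.0733% of tested genes. The gap was narrow: the nearest libraries, RH VEH 3 and WT VEH 3, held 43 and 44 reads. The log2 fold change of Tbx21 was -0.66 ± 0.466 under vehicle and -2.08 ± 0.485 under metformin. Over both treatments it was -1.37 ± 0.326 (rank 24 by p, adjusted p 0.677 by edgeR and 0.049 by DESeq2, which called 0.1% of tested genes lower). Of the 10 members, 8 were lower at an unadjusted p under 0.05 (all but Nkg7 and Klrd1), against 1.81% of tested genes. That count was 5 without RH MET 1, RH MET 2, WT MET 1, WT MET 2 or WT VEH 1, while 1.24% to 2.52% of tested genes were lower across the fits that left out a library. It was 9 within round 1 (2.89% of tested genes) and 0 within round 2 (0.212%). None of the 10 members passed the adjusted threshold by edgeR, where 0% of genes were called lower. Averaged over both genotypes, MET against VEH gave 1 member lower at an unadjusted p under 0.05 (Il2rb, log2 fold change -0.67 ± 0.257, adjusted p 1 by edgeR), against 0.66% of tested genes, and 0 called by edgeR, DESeq2 or limma-voom with 0% of genes called. That count was 4 without RH VEH 2, 3 without RH MET 3, and 0 without RH MET 1, RH MET 2, RH VEH 1, RH VEH 3, WT MET 2 or WT VEH 1, while 0.512% to 1.36% of tested genes were lower in such fits.

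Across libraries, 8 members followed each other closely and Gzmb and Nkg7 did not. Pearson's r of log2 CPM with the mean of the other members over 12 libraries, which share groups and depth, was 0.962 for Ifng, 0.92 for Eomes, 0.917 for Gzma, 0.91 for Prf1 and for Klrd1, 0.898 for Ccl5, 0.892 for Tbx21 and 0.883 for Il2rb. It was 0.521 for Nkg7 and -0.0986 for Gzmb. RH MET 1 was among the 3 lowest libraries for 9 members, RH VEH 2 for 9 and RH MET 2 for 8, whereas RH MET 3 was for 1. WT MET 2, WT MET 3 and WT VEH 1 were among the 3 highest for 6 members each. Summed over the 10 members, levels were 61.2, 71.7 and 112 CPM in RH MET, 137, 132 and 150.5 CPM in WT MET, 123, 76.7 and 148 CPM in RH VEH, and 138, 100.4 and 134 CPM in WT VEH libraries.

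The 10 genes outside the list whose log2 CPM was most like the mean of the members over the 12 libraries were Klrb1c (r 0.921), Xcl1 (0.915), Ctsw (0.908), Gm43305 (0.902), Klra8 (0.902), Fasl (0.901), Ncr1 (0.892), Ms4a4b (0.886), Coq8a (0.884) and Samd3 (0.883). Klrb1c (NK1.1), Ncr1 (NKp46) and Klra8 (Ly49H) are NK cell receptors, Xcl1 is a chemokine of NK and CD8+ T cells, Ctsw is a cathepsin of cytotoxic cells and Fasl is the ligand of the death receptor Fas. Gzmb stood apart from this set. The 3 genes nearest to Gzmb, chosen after its values were seen, were Zfp335os (r 0.877), Nfkbid (0.876), a nuclear IkB protein, and Herpud1 (0.854), an endoplasmic reticulum stress gene. Gzmb shares a chromosomal cluster with closely related granzyme genes, and no source used here states how reads matching several of them were counted. Its r with Gzmc was 0.505.

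Most NK and T cell markers, like the members, had log2 fold changes below 0 in RH MET against WT MET. The part of these markers in the result was not tested. Of the NK cell markers, 16 of 19 tested had a log2 fold change below 0 in RH MET against WT MET, 9 at an unadjusted p under 0.05 (3.59% of tested genes), with a median of -1.12. Their summed level was 112, 118 and 196 CPM in RH MET and 177, 151 and 203 CPM in WT MET libraries. Ncr1 measured 1.29, 1.19 and 3.58 CPM in RH MET, against 5.60, 4.97 and 4.62 CPM in WT MET libraries, which did not overlap. Klrk1 (NKG2D) had a log2 fold change of -1.24 ± 0.285, Klrb1c of -1.24 ± 0.352 and Klra8 of -2.42 ± 0.741, none called (adjusted p 0.738 by edgeR). Of the T cell markers, 22 of 24 were below 0, 10 at an unadjusted p under 0.05, with a median of -0.95. Their summed level was 61.8, 57.8 and 101 CPM in RH MET and 118, 204 and 120 CPM in WT MET libraries, without overlap.

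Among the defining T cell genes, the receptor constant gene Trbc1 measured 1.24, 1.40 and 2.54 CPM in RH MET, against 4.30, 10.8 and 5.75 CPM in WT MET libraries, and its log2 fold change was -1.81 ± 0.409. Bcl11b, a T lineage factor, had -1.96 ± 0.493 and the kinase Zap70 -1.62 ± 0.374. The CD3 genes had smaller differences: Cd3e had -0.78 ± 0.569 and Cd3g -1.04 ± 0.769, with libraries of the groups overlapping. Trac had -1.26 ± 0.543, Cd8a -1.26 ± 0.553 and Cd4 0.63 ± 0.484. None of these passed the threshold (adjusted p of 0.738 or above by edgeR). The defining T and NK markers Cd3e, Cd3g, Trac, Trbc1, Cd8a, Cd4, Ncr1 and Klrb1c were above 0 in every library. In the full lists, Klra4 was at 0 in RH MET 1 and WT MET 2, Klra9 in RH MET 1 and 2, Klrg1 in RH VEH 2 and WT VEH 2, and the T cell gene Icos in RH VEH 2.

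In RH MET against RH VEH, 13 of 19 NK cell markers had a log2 fold change below 0, with a median of -0.62, and 24 of 24 T cell markers did, with a median of -1.06. At an unadjusted p under 0.05, edgeR had 5 NK and 9 T cell markers lower (1.52% of tested genes), and 0 of either passed the adjusted threshold. Without RH VEH 2 and WT MET 2 these counts were 8 and 15 (1.7% of tested genes). Summed T cell marker levels were 61.8, 57.8 and 101 CPM in RH MET and 120, 158 and 141 CPM in RH VEH libraries, without overlap. RH VEH 2 therefore had a high summed T cell marker level beside low effector levels: Trbc1 stood at 6.93 CPM and Cd8a at 2.75 CPM there, whereas Cd3g stood at 0.239 CPM from 2 reads. Summed NK marker levels were 112, 118 and 196 CPM in RH MET and 147, 104 and 190 CPM in RH VEH libraries, overlapping as the members did.

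**Figure D4:**
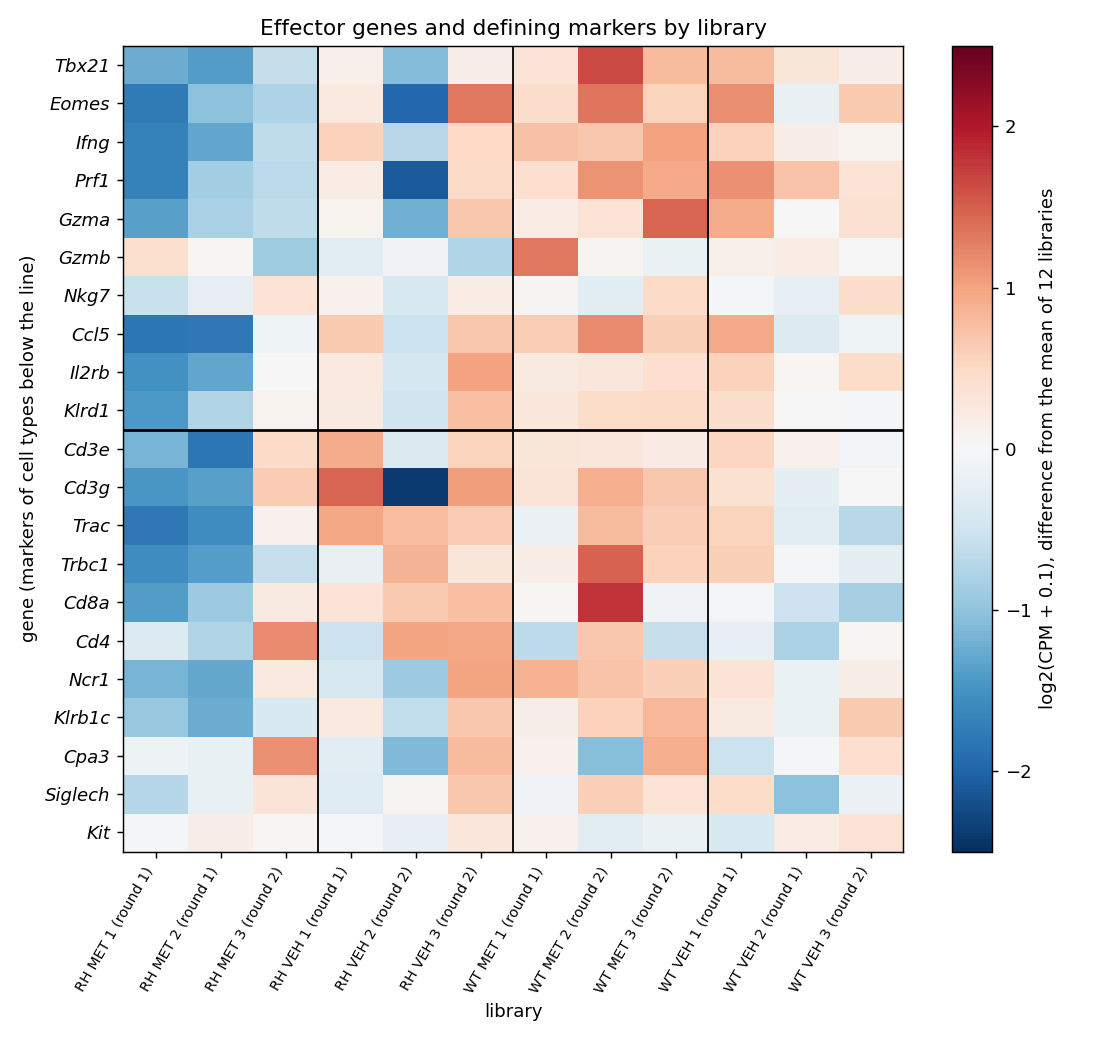
Difference of log2(CPM + 0.1) from the mean of 12 libraries for the 10 effector genes (above the line) and 11 defining markers of T, NK, mast, plasmacytoid dendritic and sorted progenitor cells (below it), by library. RH MET 1 and 2 are low for 8 effector genes and for markers such as Trbc1 (T) and Ncr1 (NK). The T cell marker Cd4 had a log2 fold change above 0 in RH MET against WT MET. RH VEH 2 is low for 9 effector genes (all but Gzmb) but not for Trac, Trbc1 and Cd8a, and Kit varies little.

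Markers of other cells showed other patterns in RH MET against WT MET, with 0 genes of any list past the adjusted threshold by edgeR. Kit, which defines the sort, had a log2 fold change of 0.17 ± 0.195, and the 10 sorted progenitor markers a median of -0.16. Medians were -1.07 over 6 innate lymphoid group 2 and 3 markers, -0.27 over 12 B cell markers, 0.20 over 8 mast cell and basophil markers (Cpa3 0.31 ± 0.568), -0.22 over 7 plasmacytoid dendritic cell markers (Siglech -0.29 ± 0.369) and -0.02 over 12 monocyte and macrophage markers. Megakaryocyte and platelet markers had a median of -0.70 (7 genes) and erythroid markers of -0.41 (8 genes). The 12 neutrophil markers all had fold changes above 0 (median 0.95). By edgeR, 2 were higher at an unadjusted p under 0.05 (Retnlg and Cxcr2), against 328 of 15003 tested genes. Their summed level was 4499 to 7062 CPM in RH MET and 1493 to 5876 CPM in WT MET libraries, which overlap. Without RH VEH 2 and WT MET 2, medians were -0.62 for innate lymphoid, -0.08 for B cell, -0.06 for mast cell and basophil, -0.23 for monocyte and macrophage, -0.26 for megakaryocyte and platelet and 0.66 for neutrophil markers. Of the neutrophil markers, 10 of 12 were then above 0, and edgeR had 7 higher at an unadjusted p under 0.05 (413 of 15325 tested genes). In RH MET against RH VEH, 12 of 12 neutrophil markers were above 0, with a median of 1.12. By edgeR, 1 was higher at an unadjusted p under 0.05 (136 of 15003 tested genes). The summed level of the 12 was 4499 to 7062 CPM in RH MET and 1592 to 5050 CPM in RH VEH libraries. Without RH VEH 2 and WT MET 2, 9 of 12 were above 0, with a median of 0.85. At an unadjusted p under 0.05, edgeR then had 8 higher (287 of 15325 tested genes). The part of these markers in the members' values was not tested.

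Lists of genes that act around the members had medians nearer to 0 than the members. Of 15 tested granzymes and granule proteins outside the list, 11 had a log2 fold change below 0 in RH MET against WT MET, with a median of -0.10. Ctsw, at -1.18 ± 0.335, and Fasl, at -2.15 ± 0.772, were the 2 lower at an unadjusted p under 0.05 (3.59% of tested genes). Receptors, kinases and STAT factors that carry cytokine input to cytotoxic cells had 7 of 17 below 0, with a median of 0.08 and none at an unadjusted p under 0.05. Il12rb1, a chain of the IL-12 receptor, had -0.80 ± 0.401, and Il18rap, a chain of the IL-18 receptor, 0.34 ± 0.168.

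Of 13 other transcription factors of the cytotoxic lineage, 8 were below 0, with a median of -0.30. Bhlhe40 had -1.13 ± 0.302, Tox -1.48 ± 0.509 and Gata3 -0.92 ± 0.406, the 3 lower at an unadjusted p under 0.05 (3.59% of tested genes). Runx3, a partner of the T-box factors in CD8+ T cells that progenitors also express, measured 43.6, 42.0 and 38.5 CPM in RH MET, against 45.8, 38.4 and 37.9 CPM in WT MET libraries, close to the same level in every library. Of 12 chemokines, chemokine receptors and homing genes, 8 were below 0 (median -0.35), with Xcl1 at -1.62 ± 0.454 and Ccl4 at -0.49 ± 0.202. Of 20 genes for the interferon gamma receptor and its targets, 12 were below 0, with a median of -0.09. Irf1, a transcription factor induced by interferon gamma, had -0.67 ± 0.192, Gbp4, a guanylate-binding protein, -0.94 ± 0.374 and the chemokine Cxcl10 -0.68 ± 0.305. All of these had an adjusted p of 0.738 by edgeR. Without RH VEH 2 and WT MET 2, the median was -0.06 for the transcription factors and -0.18 for the interferon gamma list.

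In RH MET against RH VEH the same 5 lists of genes had medians of 0.04 (granule), 0.02 (cytokine input), -0.15 (transcription factors), 0.03 (chemokines and homing) and 0.00 (interferon gamma receptor and targets), with 0 genes called. Xcl1 had -1.37 ± 0.448, Tox -1.17 ± 0.519, Socs1, an inhibitor of cytokine signalling, -0.87 ± 0.373 and Irf1 -0.43 ± 0.195 (adjusted p 0.932 each by edgeR). Without RH VEH 2 and WT MET 2 these medians were -0.04, -0.07, -0.38, -0.18 and -0.15 in the same order. The members' median of -1.02 in this comparison stood nearest to that of the T cell markers, -1.06.

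**Figure D5:**
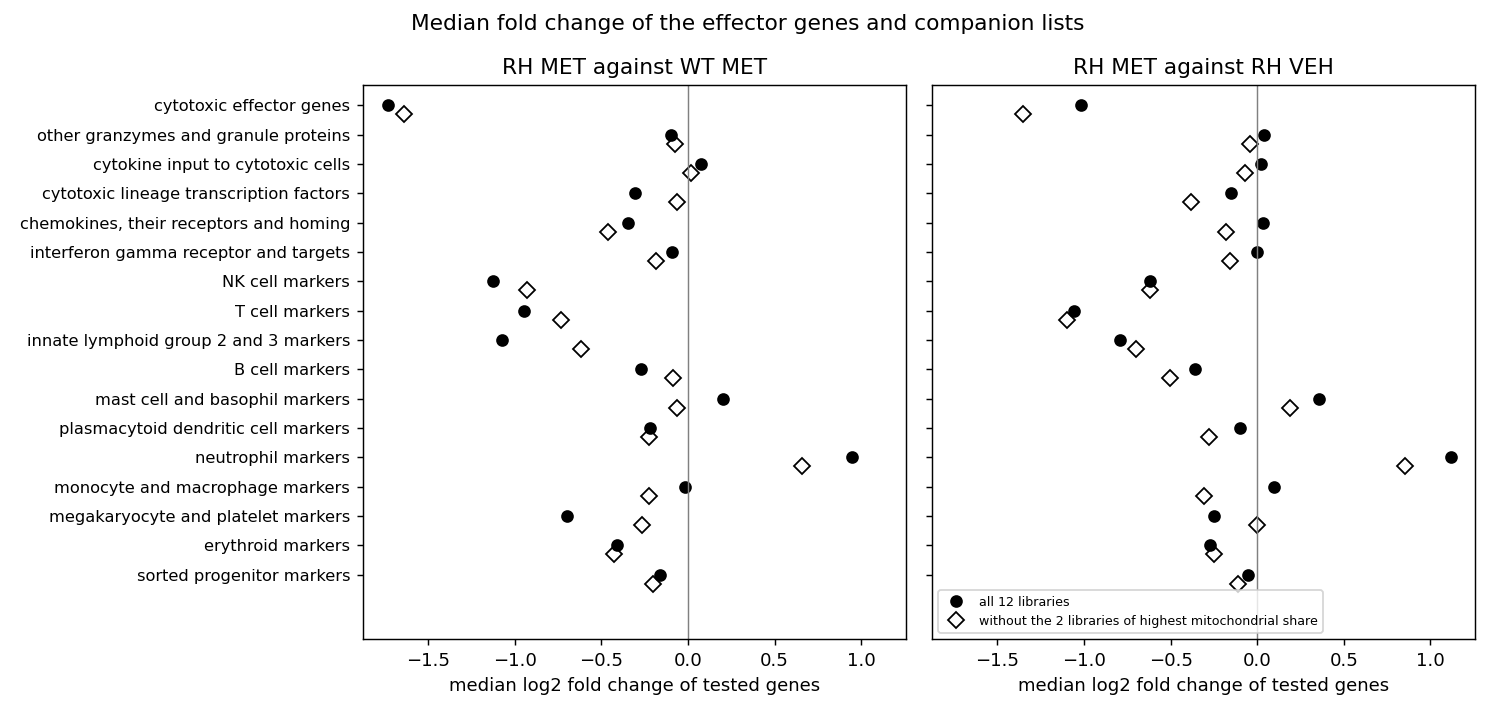
Median log2 fold change of the tested genes of each list, in RH MET against WT MET (left) and RH MET against RH VEH (right), with filled circles for all 12 libraries and open diamonds without RH VEH 2 and WT MET 2. The effector genes have the lowest median on the left (-1.73), followed by NK, innate lymphoid and T cell markers, and neutrophil markers lie above 0 in both panels.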

How the data were processed

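Lineage-negative, cKit-positive bone marrow cells were profiled by paired-end RNA sequencing (NEBNext Ultra RNA, NovaSeq), per the labels' protocols. The deposited values are raw gene counts. The submitters' processing notes name STAR 2.5, HTSeq 0.6.1 and mm10. Strand and multi-mapping settings are not given in the sources used here. Columns of the 12-library table were assigned to groups by name. The smaller table has 8 columns, of which 2 match no sample here and were not used. Counts were filtered with filterByExpr (15003 genes kept) and TMM-normalised. All 12 libraries were fitted in edgeR 4.0.16 (R 4.3.3; robust quasi-likelihood) with group means and a round term, common biological coefficient of variation 0.256. Standard errors of edgeR fold changes were derived as the absolute log2 fold change divided by the square root of the F statistic. Calls used a Benjamini-Hochberg adjusted p of 0.05. An exact test of 3 against 3 libraries cannot go below 0.1. The code of the fit was checked on simulated counts with the same spread for every gene and no round effect. That check does not speak to the spread in these data. Alternatives were DESeq2 1.42.0, limma-voom (limma 3.58.1), RLE scaling, no filter, no round term, a replicate block, each library left out, each round alone, and RH VEH 2 and WT MET 2 left out. Leaving out mitochondrial genome genes was added after seeing the data.

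The members and gene lists were chosen with earlier results of these data known. All members were named. From each other list, up to 3 genes of smallest p per comparison and preset defining markers could be named, with the 10 genes most correlated with the members' mean. A preset marker is not reported here. Correlations used log2 CPM with a prior count of 2. CPM per kb divided by the deposited gene length. Promoter sequences are RefSeq's, GRCm38.p6.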

Additional observations from a re-analysis of the deposited data

How the results depend on the processing

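The members' median stayed below 0 in both RH MET comparisons under every alternative run, and leaving out each library gave -1.92 to -1.52 for RH MET against WT MET, -1.38 to -0.69 for RH MET against RH VEH, -1.60 to -0.81 for the interaction, -1.16 to -0.74 for RH against WT, -0.63 to -0.20 for MET against VEH, -0.44 to 0.05 for RH VEH against WT VEH and -0.01 to 0.48 for WT MET against WT VEH. Within rounds, the medians that moved most were -1.27 (round 2, RH MET against WT MET), -1.55 and -0.47 (rounds 1 and 2, RH MET against RH VEH) and 0.05 (round 2, MET against VEH). The count of members past the threshold, 0 in every comparison, stayed 0 in all 12 fits that left out a library. It was 2 by DESeq2 in RH MET against WT MET and 1 in RH against WT. With no filter, which tested 27530 genes, it was 7 in RH MET against WT MET, 3 in RH MET against RH VEH, 1 (Ccl5) in the interaction, 4 in RH against WT and 1 in MET against VEH. That fit called 137 genes higher and 225 lower in RH MET against WT MET, against 1 and 0 with the filter and 3 and 19 by DESeq2, 78 and 151 in RH MET against RH VEH, 164 and 267 in the interaction, 50 and 69 in RH against WT, and 26 and 37 in MET against VEH, and the cause was not tested. Single-member values under alternatives were counted for every member in RH MET against WT MET, RH MET against RH VEH and the interaction. In each other comparison only the member of smallest p was counted. Of these 748 values, 703 kept their direction and side of the threshold, 16 newly passed it and 29 changed sign. All 29 were for Nkg7 or Gzmb. Other members changed sign outside this count. In RH VEH against WT VEH, 8 members were below 0 in the main fit and 4 without RH VEH 2 and WT MET 2.

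Nkg7 took 0.23 within round 2 in RH MET against WT MET and -0.39 to 0.019 with a library left out, above 0 without RH MET 1 (0.010) or WT MET 3. In RH MET against RH VEH it took 0.0011 with no filter, 0.46 within round 2 and -0.26 to 0.27 with a library left out. Its interaction took -0.11 with no round term, -0.67 within round 1, -0.32 without RH VEH 2 and WT MET 2, and -0.25 to 0.36 with a library left out. Gzmb in RH MET against RH VEH took 0.29 with no round term, 0.10 by limma-voom, 0.24 without RH VEH 2 and WT MET 2, 0.49 within round 1, and -0.32 to 0.22 with a library left out. In WT MET against WT VEH Gzmb took -0.073 within round 2. With a replicate block in place of the round term, the median was -1.83 in RH MET against WT MET and -1.01 in RH MET against RH VEH, 0 members passed the threshold, Gzmb took 0.22 in RH MET against RH VEH and Nkg7 -0.12 in the interaction. Same-numbered libraries of different groups had correlations of -0.0143 to 0.489 between their deviations (18 pairs, median 0.152, 14 above 0.1), against -0.397 to 0.203 for different numbers (36 pairs, median -0.152), and 11 of 12 libraries had their highest mean correlation with their own number. Deviations were taken from each group's own mean, so positive same-number values force negative different-number values. Every library numbered 1 is in round 1 and every library numbered 3 in round 2. Pairs of the same round had a median of 0.132 (26 pairs), against -0.142 for different rounds (28 pairs), so number was not separated from round. Not every same-numbered pair exceeded 0.1 and no label pairs the libraries, so this is at most a hint from the data and not the design. Where a group was left with 1 library, that library is assumed to vary like the rest. At these levels, 2 to 62 reads per library for Prf1 and Tbx21, depth limits the precision of single values.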
